A study of Mus musculus with 96 samples.

Results

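Arntl, Clock and Npas2, the activating genes of the mammalian circadian clock, were followed in mouse back-skin epidermis. They were taken by symbol and are 3 of the 22497 genes listed for each of 4 genotypes. All 96 libraries held values for each of them, and all 3 passed the filter of a mean of 1 RPKM (reads scaled for gene length and library depth) in every comparison. Polyadenylated RNA was sequenced from female C57BL/6 mice 8 weeks old that had spent 156 to 176 h in constant darkness. Tissue was taken at 6 circadian times (CT), 4 h apart with CT0 at the former lights-on, from 4 mice per time and genotype.

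Per the labels, the groups differ at Arntl and in the Cre drivers they carry. WT mice had Arntl wt/wt with both K14Cre and Syt10-Cre. The other genotypes had Arntl stopFL/stopFL, in which a floxed stop cassette blocks the gene until Cre removes it. RERE mice carried both drivers and were reconstituted in epidermis and brain, EpiRE mice carried K14Cre and were reconstituted in epidermis, and BRE mice carried Syt10-Cre and were reconstituted in brain. K14Cre acts through a keratin promoter of basal keratinocytes, so other cells of the epidermis of RERE and EpiRE mice may keep the cassette. Animals with the cassette and no Cre were not analysed here. The study asked which rhythms of the epidermis run when the clock is present in the skin, in the brain, in both or everywhere.

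BMAL1, the protein of Arntl, pairs with CLOCK or with its close relative NPAS2, and the pair binds E-box sequences to switch on the Per, Cry, Nr1d and PAR bZIP genes. PER and CRY proteins then hold the pair back. The nuclear receptors REV-ERB alpha and beta, from Nr1d1 and Nr1d2, repress Arntl, Clock and Npas2 through ROR elements that the ROR receptors use to activate them. In most tissues Arntl and Npas2 messenger RNA cycles strongly and Clock weakly. In skin the clock is known for timing keratinocyte division and differentiation.

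On mm10, Arntl (ENSMUSG00000055116) spans chromosome 7 from 113207465 to 113314126 on the plus strand, Npas2 (ENSMUSG00000026077) spans chromosome 1 from 39193731 to 39363236 on the plus strand, and Clock (ENSMUSG00000029238) spans chromosome 5 from 76209868 to 76304792 on the minus strand. Their start regions are shown as a description, with 1 window per gene, and their part in the results below was not tested. The sequences are RefSeq windows of GRCm38.p6, 250 bases before to 50 after a start site. They are chr7:113207261-113207560 on the plus strand, chr5:76304743-76305042 on the minus strand and chr1:39194022-39194321 on the plus strand, each written 5′ to 3′ along its gene. Capitals mark the motifs searched on both strands, which were the E-box core CACGTG, the ROR half-site AGGTCA and the starts of longer ROR elements, spelled TAGGTCA in the first form (which contains the half-site) and TAGGTTA in the second form.
Arntl: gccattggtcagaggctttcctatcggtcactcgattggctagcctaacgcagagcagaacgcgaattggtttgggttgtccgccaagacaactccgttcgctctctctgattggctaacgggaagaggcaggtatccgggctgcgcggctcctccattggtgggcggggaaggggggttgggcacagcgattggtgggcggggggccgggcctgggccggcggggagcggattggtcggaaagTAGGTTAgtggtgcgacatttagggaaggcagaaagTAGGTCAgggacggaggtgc
Clock: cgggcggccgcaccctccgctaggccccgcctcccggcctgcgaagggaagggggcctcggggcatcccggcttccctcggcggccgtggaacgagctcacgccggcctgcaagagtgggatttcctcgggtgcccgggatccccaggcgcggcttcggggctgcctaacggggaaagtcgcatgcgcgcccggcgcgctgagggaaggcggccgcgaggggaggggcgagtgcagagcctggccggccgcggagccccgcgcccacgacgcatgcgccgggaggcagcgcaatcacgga
Npas2: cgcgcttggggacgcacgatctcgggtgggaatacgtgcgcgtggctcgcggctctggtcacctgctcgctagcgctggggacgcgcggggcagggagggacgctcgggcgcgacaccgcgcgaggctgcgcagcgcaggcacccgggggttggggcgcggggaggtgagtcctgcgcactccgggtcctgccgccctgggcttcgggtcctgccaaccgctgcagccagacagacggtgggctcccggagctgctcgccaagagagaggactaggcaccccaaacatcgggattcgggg

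The Arntl window held the second form starting at base -6 from the start site and the first form starting at base 31 after it. Among 32851 RefSeq windows of the same length, 1.44% held the second form, 2.61% the first form, 16.3% the half-site and 7.15% the E-box core. None of the 4 motifs was in the Clock and Npas2 windows shown. Of the 2 further Clock windows in the table, 1 held the half-site on the opposite strand, starting at base -119. The other Arntl window overlaps the one shown and holds its second form. A match describes these letters alone, and elements outside the windows were not searched.

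Reads recovered from the deposited values totalled 11.1 to 19.9 M per library. Arntl took 274 to 1859 of them, Clock 1009 to 2771 and Npas2 89 to 1786. Summed keratinocyte markers ran from 14560 to 23950 RPKM over all libraries, whereas fibroblast, endothelial, muscle and adipocyte markers had no gene with a mean of 1 RPKM. Langerhans and myeloid, T cell, melanocyte, sebaceous and hair follicle markers were present, and the ranges of their summed levels overlapped between the genotypes. Melanocyte and sebaceous markers each had only 1 of 3 genes with a mean of 1 RPKM. The hair follicle sum was almost all Krt15 (mean 3936 RPKM), with Cd34 at 1.10, Lgr5 at 0.54 and Krt35 at 0.14, so it does not measure follicle content. Summed hair follicle markers, for example, ran from 3090 to 5305 RPKM in WT and from 3039 to 4169 in BRE, and T cell markers from 18.5 to 104 and from 43.5 to 110. In BRE against WT, 12.5% of all genes tested were called higher and 24.4% lower. Beside these shares, 2 of 5 keratinocyte markers were higher, and 2 of 2 hair follicle and 2 of 2 melanocyte markers tested were lower. Of the T cell markers 1 of 3 was higher and 2 were lower, and 1 of 4 Langerhans and myeloid markers was lower. The part of these cell types in the results below was not tested, and in bulk tissue fewer cells of a type and less RNA per cell cannot be told apart. Reads were counted per gene and the labels do not place the cassette within Arntl, so Arntl reads do not tell transcripts that cross the cassette from those that end in it. The times of all libraries rest on the column names of 1 set of deposited tables, since the library codes of a second set match no label.

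The BRE library of CT20 replicate 1 stood apart. It had the highest Arntl of the 24 BRE libraries, 4.37 log2 RPKM against 3.68 to 4.07 in the other 23, and the lowest Npas2, 3.68 against 4.14 to 4.64. Nr1d1 was 3.21 there against 1.65 to 2.50 in the others, and between 3.19 and 3.38 in WT at CT20. Results of BRE are given with this library, and without it where that matters.

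Arntl, the gene the cassette blocks, was read in every library of every genotype. Levels here and below are log2 RPKM. In WT it stood at 4.76, 4.60, 4.97 and 4.65 in the 4 libraries of CT0 and at 2.97, 2.98, 2.51 and 2.53 at CT12. In RERE it stood at 4.85, 4.76, 4.78 and 4.67 at CT0 and at 3.31, 3.17, 2.81 and 3.11 at CT12. Every CT0 library of these genotypes lay above every CT12 library, and the ranges of the 2 genotypes overlapped at both times.

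In EpiRE, Arntl was 4.54, 4.50, 4.90 and 4.45 at CT0 and 4.17, 4.27, 4.10 and 3.75 at CT12. In BRE it was 4.07, 4.02, 3.85 and 3.75 at CT0 and 3.68, 3.84, 3.72 and 4.00 at CT12. EpiRE thus overlapped WT at CT0 and lay above all WT libraries at CT12, while in BRE the times overlapped and all libraries fell between the WT extremes. Over its 24 libraries Arntl ran from 2.51 to 4.97 in WT (median 3.94), from 2.67 to 4.85 in RERE (median 4.13), from 3.64 to 4.90 in EpiRE (median 4.11) and from 3.68 to 4.37 in BRE (median 3.86).

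Npas2, the alternative partner of BMAL1, swung widest in WT and RERE. In WT it was 3.80, 3.72, 3.93 and 3.80 at CT0 and 1.19, 1.19, 1.41 and 1.18 at CT12. In RERE it was 3.96, 4.01, 3.98 and 3.77 at CT0 and 0.68, 1.27, 1.26 and 0.86 at CT12. The group means spanned 5.95-fold over the day in WT and 7.74-fold in RERE, with no overlap between CT0 and CT12.

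In EpiRE, Npas2 was 2.95, 2.97, 4.17 and 3.12 at CT0, 2.33, 2.72, 1.91 and 2.22 at CT12 and 3.37, 1.87, 2.38 and 2.59 at CT20. In BRE it was 4.37, 4.45, 4.52 and 4.43 at CT0 and 4.34, 4.31, 4.62 and 4.64 at CT12. EpiRE mice of 1 time differed among themselves by more than 1 log2 unit at CT0, CT4, CT16 and CT20. So did RERE mice at CT4, from 1.853 to 3.573, and WT mice at CT16, from 1.695 to 2.791. BRE libraries were all high: the BRE median of 4.45 lay above the highest WT library, 3.93, and the BRE minimum of 3.68, from the library that stood apart, was the only BRE value below that.

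Clock, the constant partner, moved little. In WT it was 3.53, 3.58, 3.50 and 3.50 at CT20 and 3.10, 3.13, 3.01 and 3.03 at CT8. In BRE it was 3.42, 3.57, 3.58 and 3.69 at CT20 and 3.59, 3.52, 3.64 and 3.60 at CT8. WT and BRE overlapped at CT20, and at CT8 every BRE library lay above every WT library. The highest and lowest time means of Clock were 1.38-fold apart in WT and 1.37-fold in RERE, but 1.21-fold in BRE and 1.10-fold in EpiRE.

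**Figure D1:**
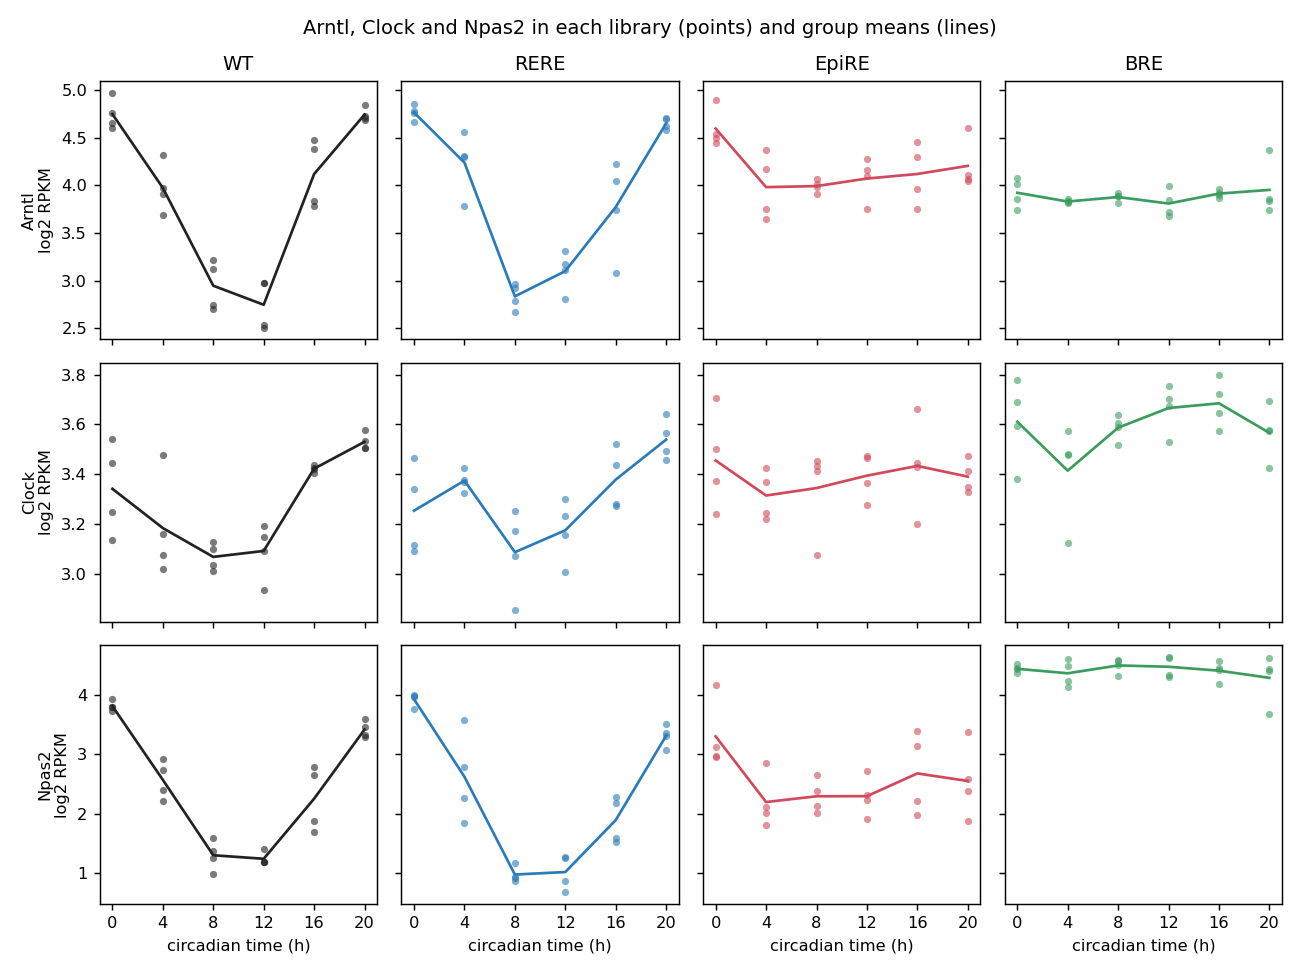
Log2 RPKM of Arntl, Clock and Npas2 (rows, each with its own axis) against circadian time in hours for WT, RERE, EpiRE and BRE (columns), with 1 point per library and a line through the means of 4 libraries. Arntl and Npas2 fall from CT0 to CT8 or CT12 and rise again in WT and RERE, fall less in EpiRE, and are flat in BRE, with Npas2 between 3.68 and 4.64 there.

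A cosine of 24 h was fitted within each genotype, and limma's moderated F test was adjusted over all genes tested. Amplitude is the height of the cosine above its mean, in log2 units, with a jackknife standard error (SE) over 24 libraries. In WT all 3 members were rhythmic at an adjusted p under 0.05, as were 33.1% of genes tested. Arntl had an amplitude of 1.10 (SE 0.07, adjusted p = 5.4e-10), Npas2 of 1.37 (SE 0.05, adjusted p = 1.8e-11) and Clock of 0.24 (SE 0.03, adjusted p = 0.00018). The fitted trough-to-peak changes were 4.57-fold, 6.64-fold and 1.39-fold.

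In RERE all 3 were rhythmic too, beside 19.4% of genes. The amplitudes were 1.01 for Arntl (SE 0.06, adjusted p = 1.5e-08), 1.55 for Npas2 (SE 0.08, adjusted p = 6.2e-10) and 0.17 for Clock (SE 0.05, adjusted p = 0.026). The call of Clock in RERE ended when any 1 replicate number was left out, with adjusted p from 0.0602 to 0.175, and when genes of low level were kept in the fit, with adjusted p = 0.0552.

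No member was called rhythmic in EpiRE, where limma called 0% of genes, as did limma-voom, and 12.6% had an unadjusted p under 0.05. Arntl kept an amplitude of 0.21 (SE 0.075, unadjusted p = 0.0335, adjusted p = 0.364), Npas2 of 0.37 (SE 0.16, unadjusted p = 0.0666, adjusted p = 0.428) and Clock of 0.05 (SE 0.04, adjusted p = 0.810). The fitted peaks of Arntl and Npas2 were at CT22.1 and CT21.6, each with an SE under 2 h.

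In BRE no member was called, beside 1.14% of genes. Amplitudes were 0.06 for Arntl (SE 0.05, adjusted p = 0.618), 0.07 for Npas2 (SE 0.06, adjusted p = 0.709) and 0.10 for Clock (SE 0.05, adjusted p = 0.272). Limma-voom on the recovered reads made the same 12 calls. A component of 12 h added to the cosine passed for no member in any genotype (lowest adjusted p = 0.352 in limma, Arntl in EpiRE, and lowest unadjusted p = 0.0494, Arntl in WT), beside 0% of genes in WT, RERE and BRE and 0.00904% in EpiRE.

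The peaks of the 3 genes did not coincide. In WT, Clock peaked at CT20.1 (SE 0.70 h), Arntl at CT21.9 (SE 0.33 h) and Npas2 at CT22.5 (SE 0.30 h). Arntl followed Clock by 1.90 h (SE 0.63) and Npas2 followed Arntl by 0.56 h (SE 0.27). In RERE the corresponding lags were 1.99 h (SE 0.94) and 0.35 h (SE 0.33). The amplitude of Npas2 was 1.25 times that of Arntl in WT (SE 0.09) and 1.53 times in RERE (SE 0.11), and that of Arntl was 4.64 times that of Clock in WT (SE 0.49). These orders are descriptions without a test.

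The difference in rhythm was tested in the same way for each pair of genotypes. No member was called between RERE and WT (lowest adjusted p = 0.848). Limma called 0% of genes in that pair, with 7.57% at an unadjusted p under 0.05, and limma-voom called 0 genes. The RERE amplitude was 92.4% of WT for Arntl, 114% for Npas2 and 70.5% for Clock. Between EpiRE and WT, Arntl (adjusted p = 7.1e-06) and Npas2 (adjusted p = 0.0012) were called and Clock was not (adjusted p = 0.109), against 1.57% of genes. Their EpiRE amplitudes were 19.4% and 26.9% of WT, and that of Clock was 20.5%. The Npas2 call was lost without replicate 2 (adjusted p = 0.0651), and Clock was called without replicate 1 (adjusted p = 0.0119).

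Between BRE and WT all 3 were called, against 5.69% of genes: Arntl with adjusted p = 6.4e-12, Npas2 with 2.0e-14 and Clock with 0.012. Amplitudes in BRE were 5.31% of WT for Arntl, 5.28% for Npas2 and 41.8% for Clock. The Clock call was lost without replicate 3 (adjusted p = 0.243), without replicate 4 (adjusted p = 0.209) and with time as a factor (adjusted p = 0.0552).

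RERE also differed in rhythm from EpiRE for Arntl (adjusted p = 9.5e-05) and Npas2 (adjusted p = 0.00028), beside 1.05% of genes, the Npas2 call being lost without replicate 2 (adjusted p = 0.0512). RERE differed from BRE for the same pair (adjusted p = 9.4e-10 and 4.5e-13), beside 4.19% of genes. Clock was called in neither (adjusted p = 0.575 and 0.175), although it was called against BRE with time as a factor (adjusted p = 0.0381). No member was called between EpiRE and BRE (lowest adjusted p = 0.555). Limma called 0% of genes there, with 8.55% at an unadjusted p under 0.05, and limma-voom called 0 genes.

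Mean levels over the day set BRE apart from WT for Npas2 and Clock and not for Arntl. Npas2 was 1.98 log2 units higher in BRE than in WT (SE 0.17, 3.95-fold, adjusted p = 1.3e-12), and Clock was 0.32 higher (SE 0.04, 1.25-fold, adjusted p = 2.7e-07). For comparison, 12.5% of genes were called higher in BRE and 24.4% lower. Arntl, at 3.88 in both, differed by 0.01 (SE 0.12, adjusted p = 0.979). Without the BRE library that stood apart the Npas2 difference was 2.04 and the Clock difference 0.33.

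In order of level, Npas2 had means of 4.41 in BRE (SD 0.21), 2.55 in EpiRE (SD 0.60), 2.43 in WT (SD 1.02) and 2.29 in RERE (SD 1.18), each over 24 libraries, and the last 3 were not called against each other. Clock had means of 3.59 in BRE (SD 0.15), 3.39 in EpiRE (SD 0.14), 3.30 in RERE (SD 0.19) and 3.27 in WT (SD 0.21), with no call among the last 3. Arntl was highest in EpiRE, with 4.16 (SD 0.31), then 3.89 in RERE (SD 0.78), 3.88 in BRE (SD 0.14) and 3.88 in WT (SD 0.83).

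EpiRE exceeded BRE in Arntl by 0.28 (SE 0.06, adjusted p = 0.00046), beside 22.9% of genes called higher in EpiRE. It lay below BRE by 0.20 in Clock (SE 0.04, adjusted p = 8.9e-05) and by 1.86 in Npas2 (SE 0.12, adjusted p = 7.5e-17), beside 11.1% called lower. Against WT the Arntl excess of EpiRE, also 0.28 (SE 0.12), was not called (adjusted p = 0.329), beside 0.931% of genes called higher and 1.30% lower. With the spread pooled over all 96 libraries it was called (adjusted p = 0.0056). RERE differed from BRE in Clock (lower by 0.29, SE 0.05, adjusted p = 4.5e-06) and in Npas2 (lower by 2.12, SE 0.19, adjusted p = 7.7e-12), beside 10.1% of genes called lower. No member was called between RERE and WT, where 0.787% of genes were higher and 1.35% lower in RERE, or between RERE and EpiRE, where 0.00906% were higher and 0% lower.

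The genotypes were then compared at each time. In EpiRE, Arntl was higher than WT at CT8 by 1.05 (SE 0.17, adjusted p = 0.0032) and at CT12 by 1.32 (SE 0.17, adjusted p = 5.5e-06), beside 0.0904% and 0.552% of genes called higher at these times and 0.163% and 0.425% lower. Npas2 was 0.99 higher at CT8 (SE 0.28, adjusted p = 0.186) and 1.06 higher at CT12 (SE 0.28, adjusted p = 0.0565), neither being called. At CT20 Arntl was lower by 0.54 and Npas2 by 0.87, with adjusted p of 0.706 and 0.731. The EpiRE means therefore lay above WT at the WT low and below it at CT20, and passed the test for Arntl at CT8 and CT12. With genes of low level kept in the fit, Npas2 was called at CT8 (adjusted p = 0.0111), CT12 (adjusted p = 0.00607) and CT20 (adjusted p = 0.0351), and Arntl at CT20 (adjusted p = 0.0260). Clock was then called too, at CT8 (adjusted p = 0.0388) and CT12 (adjusted p = 0.0184). Keeping those genes also raised the genes called in mean level over the day from 247 to 4303. The share called at each time was not counted there, so these added calls do not set the members apart from other genes. The CT8 call of Arntl was lost without replicate 3 (adjusted p = 0.1001) and without replicate 4 (adjusted p = 0.0515). Npas2 at CT12 was called without the EpiRE library of CT0 replicate 3 (adjusted p = 0.0353).

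In BRE, Npas2 was called higher than WT at all 6 times. The excess was 0.63 at CT0 (SE 0.18, 1.55-fold, adjusted p = 0.0492), 3.20 at CT8 (9.17-fold, adjusted p = 3.7e-17) and 3.24 at CT12 (9.42-fold, adjusted p = 4.9e-17), and lay between these values at CT4 (1.80, adjusted p = 2.1e-09), CT16 (2.16, adjusted p = 2.9e-11) and CT20 (0.87, adjusted p = 0.0156). In the order of the day 1.28%, 2.21%, 4.43%, 4.53%, 1.95% and 0.109% of genes were called higher, and 0.726%, 3.74%, 6.00%, 7.40%, 3.86% and 0.154% lower. Thus BRE stood nearest to WT at the WT peak and still above it, but the CT0 call was lost when library medians were set equal (adjusted p = 0.0632) and without any 1 replicate number (adjusted p from 0.0553 to 0.263).

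Arntl in BRE crossed WT. It was lower at CT0 by 0.83 (SE 0.14, adjusted p = 0.00052) and at CT20 by 0.79 (SE 0.14, adjusted p = 0.0081). It was higher at CT8 by 0.93 (adjusted p = 8.2e-06) and at CT12 by 1.06 (adjusted p = 7.5e-07). Clock was higher at CT8 by 0.52 (SE 0.09, adjusted p = 9.6e-05) and at CT12 by 0.57 (SE 0.09, adjusted p = 1.8e-05). It was called at CT0 and CT16 as well with genes of low level kept (adjusted p = 0.0261 and 0.0280), at CT0 without replicate 4 (adjusted p = 0.0189) and at CT16 with library medians set equal (adjusted p = 0.0247). Keeping genes of low level raised the genes called in mean level over the day from 4066 to 8585, and shares at each time were not counted there. The CT20 calls of Arntl and Npas2 were lost without replicates 2, 3 or 4, with adjusted p up to 0.321 and 0.356, and the CT0 call of Arntl without replicate 3 (adjusted p = 0.0631). Between RERE and WT none of the 18 comparisons of a member at a time was called, with a lowest adjusted p of 0.316, beside few genes of either direction (0.0452% lower in RERE at CT4, 0.00905% higher and 0.0181% lower at CT16, 0.0271% lower at CT20 and 0% otherwise).

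EpiRE and BRE were also set side by side at each time. Npas2 was lower in EpiRE at all 6 times, by 1.14 at CT0 (SE 0.27, adjusted p = 0.0112) and with a difference of -2.204 at CT8 (SE 0.27, adjusted p = 7.6e-07), beside 2.56% and 1.99% of genes called lower. At CT4, CT12, CT16 and CT20 the differences were -2.17, -2.18, -1.73 and -1.74 (adjusted p = 9.7e-07, 9.9e-07, 8.2e-05 and 0.00019). Beside them 1.10%, 3.34%, 1.81% and 0.145% of genes were called lower. Arntl was higher at CT0 by 0.67 (SE 0.14, adjusted p = 0.0043), beside 1.12% called higher, and was called at no other time. Clock was called at none, but at CT12 its difference was called with genes of low level kept (-0.27, adjusted p = 0.0393) and with library medians set equal (-0.33, adjusted p = 0.0402). Keeping genes of low level raised the genes called in mean level over the day from 3737 to 8025 in this pair. The CT0 call of Npas2 was lost without replicate 2 (adjusted p = 0.0992) or 4 (adjusted p = 0.0619), its CT20 call without replicate 2 (adjusted p = 0.104) and the Arntl call without replicate 3 (adjusted p = 0.0965).

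**Figure D2:**
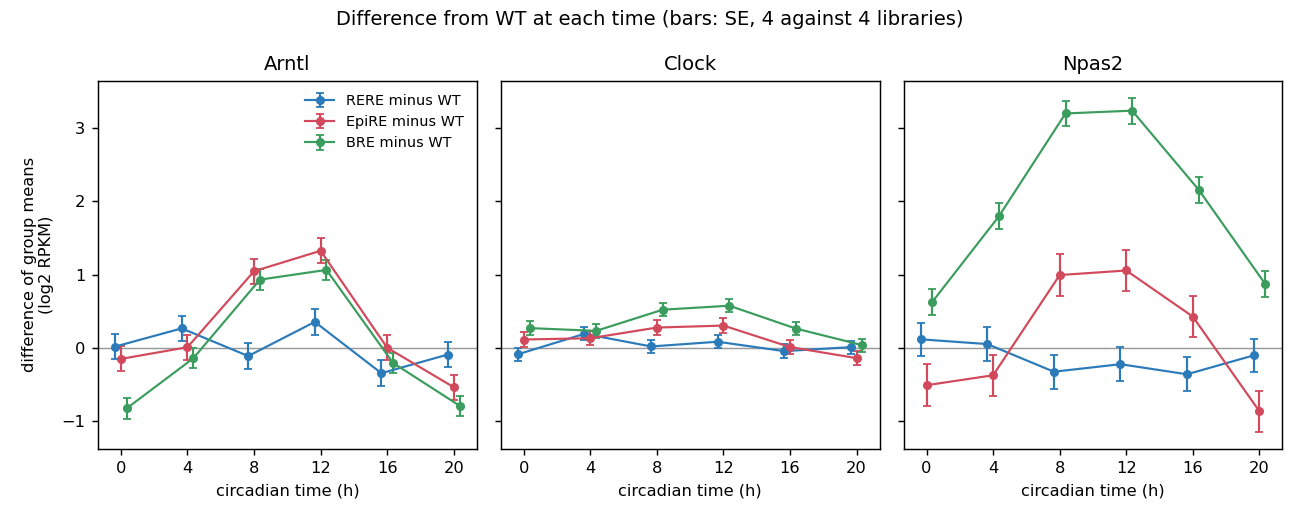
Difference of group means from WT in log2 RPKM against circadian time in hours, for Arntl, Clock and Npas2, with SE bars from the group-means fit of 4 against 4 libraries. RERE stays within 0.36 of WT, EpiRE exceeds WT in Arntl at CT8 and CT12, and BRE exceeds WT in Npas2 by 0.63 to 3.24 at every time.

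RPKM divides reads by gene length, here 10943 bases for Clock and 4183 for Npas2 as recovered from the deposited values. The levels set side by side below therefore rest on those lengths. In reads, Clock exceeded Npas2 in every library, for example 2629 against 1604 in BRE CT0 replicate 1. In WT the share of Npas2 in the sum of Npas2 and Clock RPKM was 58.1% at CT0 (SD 2.48, n = 4) and 21.8% at CT12 (SD 2.67, n = 4). RERE went from 61.5% (SD 4.07) to 18.6% (SD 3.77). EpiRE went from 47.4% (SD 11.3) to 32.0% (SD 5.002). Per length, Npas2 thus exceeded Clock at CT0 in every library of WT and RERE and in 1 EpiRE library, which reached 63.4%.

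In BRE the share was 63.9% (SD 3.37, n = 24) and never below 54.4%. The sum of the 2 partners was 33.6 RPKM in BRE (SD 3.37) against 16.6 in WT (SD 5.42), 16.6 in RERE (SD 5.63) and 17.0 in EpiRE (SD 3.66). At CT0, where WT was highest, the sum was 24.3 in WT (SD 1.94) and 34.0 in BRE (SD 1.63), with no overlap of the 4 libraries of each. Arntl exceeded Npas2 by 1.44 log2 units on average in WT (SD 0.35), 1.6 in RERE (SD 0.51) and 1.61 in EpiRE (SD 0.37). In BRE it lay 0.53 below Npas2 (SD 0.31). Arntl RPKM against Clock crossed in WT, from 1.41 above at CT0 to 0.34 below at CT12, and stayed above in EpiRE, from 1.14 to 0.68. These ratios are given without a test.

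**Figure D3:**
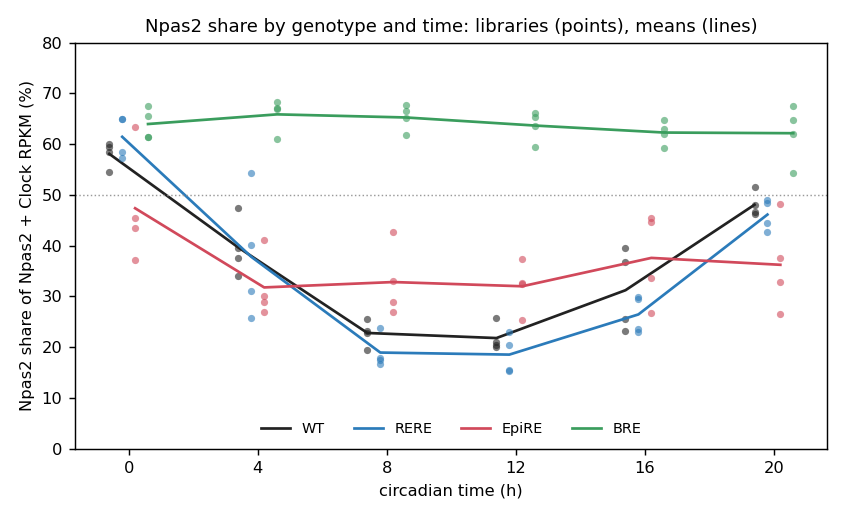
Share of Npas2 in the sum of Npas2 and Clock RPKM (percent) against circadian time in hours, with 1 point per library, a line through the means and small sideways offsets between genotypes. BRE stays between 54.4 and 68.3%, WT and RERE reach at most 25.8% at CT8 and CT12, and EpiRE lies between 25.3 and 63.4%.

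Mice killed at the same time could also differ from each other. The within-time SD of Npas2 was lowest in BRE, 0.22, then 0.29 in WT and 0.38 in RERE, and reached 0.52 in EpiRE. By a permutation test exchanging deviations within time, the spread of EpiRE exceeded that of WT (log2 variance ratio 1.67, p = 0.00167, adjusted p = 0.010) and of BRE (2.43, p = 0.00053, adjusted p = 0.00636). These p-values were adjusted over 12 such tests. For Arntl the SD was 0.15 in BRE, against 0.25 in both WT and EpiRE and 0.27 in RERE, and BRE was below both WT (log2 ratio -1.503, adjusted p = 0.0366) and EpiRE (log2 ratio of EpiRE over BRE 1.59, adjusted p = 0.0434). Clock had SDs from 0.12 to 0.15 and no pair was called.

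These calls rested on full groups. Without replicate 1, 3 or 4 the Npas2 difference between EpiRE and WT was not called, with adjusted p from 0.0725 to 0.228. That between EpiRE and BRE was lost without replicate 3 (adjusted p = 0.0805), and both Arntl calls without replicate 2, 3 or 4. Without the BRE library that stood apart, the Npas2 spread of BRE was also below that of WT (log2 ratio -1.84, adjusted p = 0.00631). Without the EpiRE library of CT0 replicate 3, the Arntl spread of EpiRE was no longer called against BRE (adjusted p = 0.0863).

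The deviations of single mice from their time's mean were then correlated, in 6 pairs of genes and 4 genotypes, with permutation p-values adjusted over 24. Over 24 libraries in EpiRE, Arntl and Npas2 deviated together (r = 0.76, p = 0.00111, adjusted p = 0.0248; rho = 0.71, p = 0.00254, adjusted p = 0.0305), and r was 0.68 without the 2 libraries farthest from the Arntl median. In WT r was 0.69 (p = 0.0183, adjusted p = 0.0628; rho = 0.71, p = 0.00904, adjusted p = 0.0421) and 0.64 without 2 libraries. In RERE r was 0.53 (adjusted p = 0.172) and 0.35 without 2 libraries, and in BRE it was -0.53 (adjusted p = 0.256) and -0.10 without 2 libraries. The BRE value therefore rested on those 2 libraries, 1 of which was the library that stood apart.

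Arntl deviated against Nr1d1, which encodes its repressor REV-ERB alpha, in the genotypes with a reconstituted or intact skin. By permutation test r was -0.68 in WT (p = 0.00639, adjusted p = 0.0380; rho = -0.77, adjusted p = 0.0305), -0.80 in RERE (p = 0.00207, adjusted p = 0.0248; rho = -0.66, adjusted p = 0.0421) and -0.65 in EpiRE (p = 0.00464, adjusted p = 0.0371; rho = -0.57, adjusted p = 0.0421). Without the 2 farthest libraries r was -0.65, -0.70 and -0.60. In BRE r was 0.40 (adjusted p = 0.534 by permutation) and rho was 0.037 (adjusted p = 0.890 by permutation), and r was -0.21 without the 2 farthest libraries. Without replicate 1, r was -0.54 in BRE (adjusted p = 0.347 by permutation) and -0.33 in EpiRE (adjusted p = 0.497 by permutation). The sign in BRE thus changed with the libraries included. Npas2 against Nr1d1 passed in EpiRE, with r = -0.67 (p = 0.00791, adjusted p = 0.0380; rho = -0.59, adjusted p = 0.0421) and -0.52 without 2 libraries. Clock passed with no gene by r, its nearest value being r = 0.49 with Arntl in WT (p = 0.0166, adjusted p = 0.0628; rho = 0.49, adjusted p = 0.0421). Differences of r between genotypes were not tested, and each of these calls by r was lost when any 1 replicate number was left out (adjusted p from 0.0635 to 0.497), with the same sign.

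**Figure D4:**
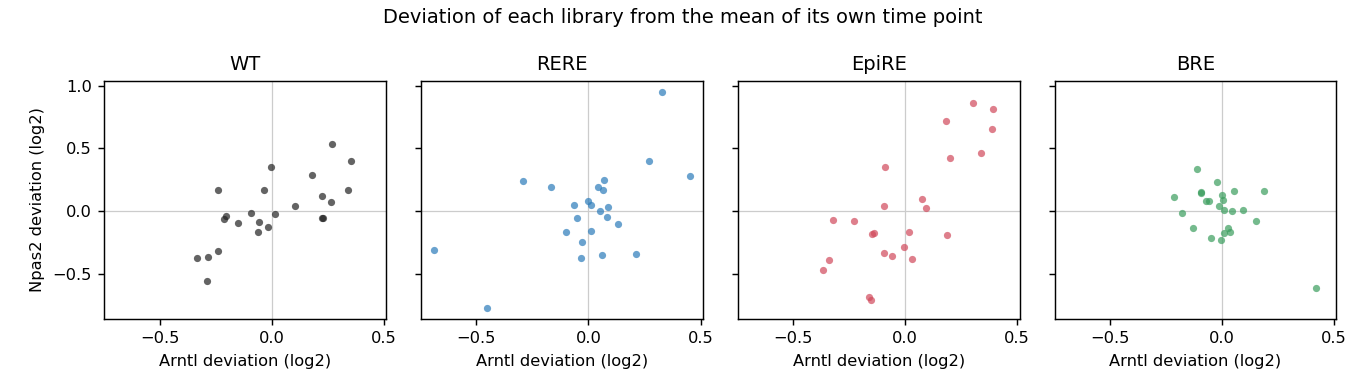
Deviation of Npas2 (vertical, log2 units) against that of Arntl (horizontal, log2 units) from the mean of the same genotype and time, 24 libraries per panel. The points slope upward in WT (r = 0.69) and EpiRE (r = 0.76), and in BRE they form a compact cloud with 1 library far to the lower right.

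Genes that the activators drive or that restrain them were taken from a list of 14 E-box targets and repressors, of which 13 were tested. In WT 12 of 13 were rhythmic, beside 33.1% of all genes, with a median amplitude of 1.31 against 0.12 over all genes. In RERE it was 11 of 13, beside 19.4%. In EpiRE 0 of 13 and in BRE 1 of 12 were called, beside 0% and 1.14% of genes, the latter being Per1 (amplitude 0.66, adjusted p = 0.028), which was chosen after its values were seen. Per2, a repressor of the pair, had amplitudes of 2.87 in RERE and 2.61 in WT, against 0.59 in EpiRE and 0.34 in BRE. Dbp, a PAR bZIP factor and direct target, had 2.82, 2.85, 0.68 and 0.13 in the same order.

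In level, 8 of the 13 were lower in BRE than in WT and 1 was higher, beside 24.4% and 12.5% of genes, with a median difference of -0.66 against -0.05 over all genes. Nr1d1 was lower by 3.41 (SE 0.25, adjusted p = 4.7e-14) and Dbp was lower, with a difference of -2.17 (SE 0.33, adjusted p = 1.4e-06). Cry1, which encodes a repressor of the pair, was the gene that was higher, by 1.67 (adjusted p = 9.8e-12). Per2 differed by 0.07 (adjusted p = 0.874). None of the 13 was called in level between EpiRE or RERE and WT. Of all genes, 0.931% were called higher and 1.30% lower in EpiRE, and 0.787% and 1.35% in RERE. The list therefore does not stand apart in these pairs.

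Limma called 0 of the 13 in rhythm in EpiRE, where it called no gene at all; Per2 and Dbp had adjusted p of 0.355 and 0.386 there. The difference in rhythm from WT was called for 10 of 13 in EpiRE and 10 of 13 in BRE, beside 1.57% and 5.69% of genes.

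Among 11 nuclear receptors and factors that act on Arntl through ROR elements, 8 were tested, 2 of them, Nr1d1 and Nr1d2, being on the list above as well. In WT 6 of 8 were rhythmic, beside 33.1% of genes, and in RERE 5 of 8, beside 19.4%. None was called in EpiRE or BRE, where 0% and 1.14% of genes were, so that the list does not stand apart there. Nr1d1 peaked at CT7.11 in WT with an amplitude of 2.15, before the lowest time mean of Arntl. Nr1d2 peaked at CT9.27 with 1.31. In BRE 4 of 8 were lower than in WT and 2 higher, beside 24.4% and 12.5% of genes. Nr1d2 was lower by 2.56 (SE 0.15, adjusted p = 3.4e-17), while Nfil3, a bZIP repressor, was higher by 0.56 (adjusted p = 0.011). The 4 lower ones were Nr1d1, Nr1d2, Ppara and Ncor1.

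Of 16 other genes of the bHLH-PAS family, to which the 3 activators belong, 8 had a mean of at least 1 RPKM. The neuronal relatives Npas1, Npas3, Npas4, Sim1 and Sim2 were below it. In WT 4 of 8 were rhythmic, in RERE 2 and in EpiRE and BRE none, beside 33.1%, 19.4%, 0% and 1.14% of all genes, shares to which all but the WT count come close. The median WT amplitude was 0.11 against 0.12 over all genes. Arntl2, the close paralog of Arntl, had means of 3.10 in BRE (SD 0.24), 3.18 in WT (SD 0.26), 3.198 in EpiRE (SD 0.26) and 3.199 in RERE (SD 0.20). Its difference from WT was -0.08 in BRE (SE 0.07, adjusted p = 0.381). Its WT amplitude was 0.20 (adjusted p = 0.0395). In level 1 of the 8 was higher and 2 were lower in BRE than in WT, near the 12.5% and 24.4% of all genes. The higher one was Ahr, the aryl hydrocarbon receptor, by 0.17 (adjusted p = 0.00058). The lower ones were Epas1, a hypoxia factor, by 0.39 (adjusted p = 0.00021) and Ncoa3, a coactivator, by 0.18 (adjusted p = 2.4e-05). Npas2 differed by 1.98 in the same fit.

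Of 20 coactivators, kinases and modifiers of the activator complex, 19 were tested. In WT 10 were rhythmic, in RERE 3 and in EpiRE and BRE none, beside 33.1%, 19.4%, 0% and 1.14% of all genes, and their median WT amplitude was 0.12, that of all genes. Cipc, an inhibitor that binds CLOCK, had the largest of those called, 0.33 in WT (adjusted p = 1.3e-06) and 0.38 in RERE, with 0.19 in EpiRE and 0.01 in BRE. It was the only gene of the list whose rhythm differed between BRE and WT (adjusted p = 2.2e-05), beside 5.69% of all genes. Kmt2a, a histone methyltransferase, had 0.20 in WT, and Prkca, a kinase, 0.22. In level 5 were lower and 1 was higher in BRE than in WT, which is near or below the 24.4% and 12.5% of all genes. The largest of these differences was -0.27, for the deacetylase Sirt1 (adjusted p = 0.0082).

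The pattern of each member over the 24 group means was set against 11025 other genes. For Npas2 the nearest was Ttc9 (r = 0.99), followed by Dolpp1, Agpat3, Otulin and Polb, the last a DNA polymerase of base excision repair, with r from 0.95 to 0.96. Ttc9 was 1.54 higher in BRE than in WT (SE 0.14, adjusted p = 5.1e-12) and had a WT amplitude of 1.05 peaking at CT22.0. The farthest were Per3 (r = -0.97), Ifrd2 and Rsad1. For Clock the nearest were Adam17 (r = 0.94), a membrane protease, Phactr2, Daam1, Camsap2 and Stox2, all 5 of which were higher in BRE by 0.22 to 0.38. The farthest were Ephx1 (r = -0.90), 2310007B03Rik and Chit1.

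For Arntl the nearest were Ift80 (r = 0.87), the mitotic genes Prc1 and Nusap1 (r = 0.86 and 0.85), the matrix protease Mmp3 and Vps36 (r = 0.84 for both). Cry2 was farthest (r = -0.91), before Mknk2 and Ctsh. Nusap1 had a WT amplitude of 0.98 and a level in BRE 0.07 below WT (adjusted p = 0.803). Among the members r was 0.81 between Clock and Npas2, 0.58 between Arntl and Npas2 and 0.53 between Arntl and Clock. These likenesses are descriptions over group means that share genotypes and times, and carry no p.

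In the authors' deposited tables, BIOCYCLE gave q = 0.00207 for Arntl, 0.00566 for Clock and 7.5e-05 for Npas2 in WT, with peaks at 21.6, 20.3 and 22.3 h. In the authors' deposited table of RERE these q-values were 0.0224, 0.556 and 0.00902. The authors' deposited JTK_CYCLE table gave q = 0.0371 for Clock in RERE, so the deposited programs stand on either side of 0.05 for that gene. In EpiRE and BRE the authors' deposited q-values of both programs were at least 0.462 for all 3 members.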

How the data were processed

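Polyadenylated RNA of epidermis was sequenced from 96 mice, 4 per genotype and time. The tools, per the submitters' processing notes, included featureCounts 1.6.0, HISAT2 2.2.1, Trimmomatic 0.36, SAMtools 1.3.1 and an unstated version of edgeR, with the mm10 build. Neither their settings nor any use of the molecular identifiers was stated. The authors deposited log2 RPKM per gene and library, with the p-values and q-values, periods, lags and amplitudes that BIOCYCLE and JTK_CYCLE gave. The 96 library columns of the second set of tables match no label and were not used.

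Tests used limma 3.58.1 in R 4.3.3 with a mean-variance trend, on genes averaging 1 RPKM or more over the compared libraries, with Benjamini-Hochberg adjustment over all of them. Level tests included time as a factor of 6. Permutation tests used 100000 resamples in Python 3.11.15 with numpy 2.4.6. Whole reads were recovered within 0.1 read for 99.54% of genes and used for limma-voom. The scripts were tested on simulated data. Named genes are the members, up to 3 per list by WT amplitude, and Nr1d1, Per2, Dbp and Arntl2, and for each member the 5 most and 3 least alike over group means; others named were chosen after their values were seen. The members and lists were chosen with earlier results of these data known. Same-numbered libraries did not deviate together (mean r 0.004 over 1104 pairs, against -0.001 over 3312 others), so the numbers were not used as pairs. Depth gives counting precision alone. The mice are called biological replicates by the labels. A result on a listed gene is not reported here.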

Additional observations from a re-analysis of the deposited data

Results flagged for a closer look

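Within the 72 groups of 4 libraries (3 genes, 4 genotypes and 6 times), 4 held a library far from the other 3, where chance flags about 5% of groups. Arntl in EpiRE at CT20 was 4.597 log2 RPKM in replicate 1 and 4.04 to 4.11 in the others. Npas2 in EpiRE at CT0 was 4.169 in replicate 3 and 2.95 to 3.12 in the others. Clock in EpiRE at CT8 was 3.075 in replicate 1 and 3.41 to 3.45 in the others. Npas2 in WT at CT12 was 1.407 in replicate 3 and 1.18 to 1.19 in the others.

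Rhythms that differed between genotypes by limma's interaction test are listed here with their adjusted p. Between EpiRE and WT these were Arntl (7.099e-06) and Npas2 (0.001213). Between BRE and WT they were Arntl (6.36e-12), Clock (0.01196) and Npas2 (2.048e-14). Between RERE and EpiRE they were Arntl (9.482e-05) and Npas2 (0.0002841), and between RERE and BRE Arntl (9.406e-10) and Npas2 (4.476e-13). The amplitude was the lower one in EpiRE and BRE in each of these pairs.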

How the results depend on the processing

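Of 195 alternative values for rhythm of the members, 190 kept their call, as did 191 of 198 for differences in rhythm, 179 of 180 for mean levels, 247 of 278 for levels at a time, 71 of 84 for spread and 98 of 120 for correlations. Results that stayed uncalled count as kept. Among correlations 21 values lost a call and 1 gained one, and for spread 11 lost a call and 2 gained one. Levels at a time were counted only for comparisons called in at least 1 setting. Ranges over fits with a sample left out cover 2 settings, leaving out a replicate number and leaving out a single library. Single libraries were left out only from EpiRE and BRE, and not for correlations. Clock in RERE was not called without the filter on low values (adjusted p = 0.05524) or without any 1 replicate number (0.0602 to 0.175). For differences in rhythm, leaving out a replicate number or a library gave adjusted p of 0.01191 to 0.4916 for Clock and 3.027e-05 to 0.0651 for Npas2 in EpiRE against WT, 0.005067 to 0.2432 for Clock in BRE against WT, and 1.086e-05 to 0.05116 for Npas2 in RERE against EpiRE. Both of the lowest Npas2 values were without EpiRE CT0 replicate 3. With time as a factor, Clock had 0.05515 in BRE against WT and 0.03811 in RERE against BRE. With the spread pooled over 96 libraries, the Arntl level of EpiRE against WT (0.2818) was called. Small uncalled level differences changed sign: Npas2 in EpiRE against WT (-0.03141) and Arntl in BRE against WT (-0.08732) with limma-voom, and Arntl in RERE against BRE (-0.02359) with library medians set equal (the median shift). With a replicate number left out, Arntl ranged from -0.02093 to 0.04646 and Clock from -0.002071 to 0.04299 in RERE against WT. With a replicate number or a library left out, Arntl ranged from -0.006876 to 0.01819 in BRE against WT and from -0.02142 to 0.03786 in RERE against BRE. The cause was not tested.

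Spread ratios (log2) with a replicate number or a library left out ranged as follows. For Arntl they ran from -2.787 to -1.025 in BRE against WT, 1.22 to 2.87 in EpiRE against BRE, -0.07627 to 0.1957 in EpiRE against WT and -0.2271 to 0.3708 in RERE against WT. For Clock they ran from -0.5131 to 0.7193 in BRE against WT, -0.3038 to 0.7576 in EpiRE against BRE and -0.115 to 0.3958 in RERE against WT. For Npas2 they ran from -2.517 to -0.0081 in BRE against WT, 2.126 to 3.812 in EpiRE against BRE and 1.295 to 2.118 in EpiRE against WT. Without BRE CT20 replicate 1 the Npas2 ratio of BRE against WT was -1.843, without EpiRE CT0 replicate 3 the Arntl ratio of EpiRE against BRE was 1.508, and the median shift gave -0.03638 for Arntl in EpiRE against WT.

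Correlations with a replicate number left out ranged from -0.7278 to -0.6188 for Arntl and Nr1d1 in WT, -0.8477 to -0.7121 in RERE, -0.8611 to -0.3307 in EpiRE and -0.5399 to 0.7367 in BRE. Arntl and Npas2 ranged from 0.7174 to 0.786 in EpiRE and -0.8013 to 0.02902 in BRE, and Npas2 and Nr1d1 from -0.8396 to -0.5664 in EpiRE. Clock and Npas2 ranged from -0.1416 to 0.429 in EpiRE and -0.1365 to 0.06891 in RERE, Clock and Nr1d1 from -0.2338 to 0.0004083 in EpiRE, and Arntl and Clock from -0.1092 to 0.2866 in BRE. Under the median shift Arntl and Clock in WT had 0.5197 (adjusted p = 0.03948), Arntl and Nr1d1 in WT -0.67 (adjusted p = 0.05331) and Clock and Npas2 in RERE 0.08772.

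The replicate block changed no call of a member in rhythm, difference in rhythm or mean level (Clock in RERE kept adjusted p = 0.02559), while genes called rhythmic in BRE went from 125 to 41. Other gene counts moved too. Genes rhythmic went from 3675 to 2249 in WT, 0 to 199 in EpiRE and 125 to 31 in BRE with time as a factor, 125 to 12 in BRE without the filter and 0 to 94 in EpiRE with pooled spread. With a replicate number left out they ranged from 2019 to 2701 in WT and 875 to 1619 in RERE. With a replicate number or a library left out they ranged from 0 to 2 in EpiRE (2 without EpiRE CT4 replicate 3, otherwise 0) and 0 to 198 in BRE. Differences in rhythm went, with time as a factor, from 174 to 109 in EpiRE against WT, 627 to 285 in BRE against WT, 461 to 286 in RERE against BRE and 0 to 3 in EpiRE against BRE. With pooled spread they went from 174 to 305 in EpiRE against WT and 116 to 200 in RERE against EpiRE, and without the filter to 97 and 77. With a replicate number or a library left out these counts ranged from 37 to 278, 305 to 623, 214 to 448, 23 to 183 and 0 to 4 in EpiRE-WT, BRE-WT, RERE-BRE, RERE-EpiRE and EpiRE-BRE. Of these, 278 and 183 were without EpiRE CT0 replicate 3, and 623 and 448 without BRE CT20 replicate 1; replicate numbers alone gave at most 245, 132, 380 and 335 in the same order. Level counts without the filter rose from 236 to 4310 in RERE against WT, 247 to 4303 in EpiRE against WT, 4066 to 8585 in BRE against WT, 3737 to 8025 in EpiRE against BRE, 3020 to 7324 in RERE against BRE and 1 to 347 in RERE against EpiRE, where limma-voom and the median shift gave 2. With a replicate number left out they ranged from 48 to 321 in RERE-WT. With a replicate number or a library left out they ranged from 55 to 282 in EpiRE-WT (at most 230 by replicate number), 1873 to 3283 in RERE-BRE (at most 2520) and 0 to 1 in RERE-EpiRE. The lowest count of a member in a library was 89 reads, for Npas2 in RERE; in BRE Arntl had fewer reads (480 to 1058) than Npas2 (673 to 1786).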
